A study of Mus musculus with 24 samples.

Results

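Imprinted genes, of which only the maternal or only the paternal copy is transcribed, were followed in mouse nucleus accumbens by RNA sequencing. The members were 39 genes chosen by symbol, as known targets of DNA methylation, by a rule that uses no measured value, though earlier results of these data were known when they were chosen. A row was found by Ensembl identifier for 35 of them, among 37991 rows in the count table. Of these 35, 33 passed the filter on low counts in each experiment and were tested, where the filter left 15249 genes for the wild-type and 17597 for the floxed libraries. By the allele that is known to be expressed in mouse, 18 members are paternally expressed (16 in the table), 15 maternally expressed (13 in the table) and 6 have an expressed allele that differs by isoform or cell type (all 6 in the table). The counts do not separate the alleles, so this division is background and not a measurement.

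Imprints are set by DNA methylation in the germ line, where Dnmt3a is one of the enzymes that write it, and are kept in the cells of the body by maintenance methylation. A short methylated region, the imprinting control region, governs each cluster of imprinted genes, often through a long noncoding RNA. In brain, several members are known for roles in growth, feeding, maternal behaviour and synaptic function, and some are imprinted only in neurons.

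The labels give 24 libraries in 8 groups of 3. The wild-type experiment set stressed C57BL/6J mice against unstressed ones in each sex, with no virus, and the stress is named in the series title as subchronic variable stress, in which the stressor is varied. In the floxed experiment, all females and males were stressed, had a C57BL/6J background and the genotype Dnmt3a2lox/2lox, in which part of Dnmt3a is flanked by loxP sites, and received AAV-GFP or AAV-CRE. AAV is an adeno-associated virus that carries a gene into cells, GFP is a fluorescent control protein, and Cre is the recombinase that removes a flanked stretch of DNA. Each library was made from pooled RNA of 4 mice, so n counts libraries and the spread between single mice is not seen. The sources used here do not give the length of the stress, the age of the mice or the promoter that drives Cre, and the protocol mentions dorsal striatum as well as nucleus accumbens as the tissue taken. The groups of the floxed experiment have no unstressed or virus-free control. The experiments differ in genotype, virus and depth together, so each was fitted alone and their levels were not compared by test.

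Total counts ran from 7116123 to 12145551 for wild-type and from 28132563 to 59829070 in floxed libraries, of which the members took 0.735% to 1.11% and 0.888% to 1.22%. All 10 markers of medium spiny neurons, the main neuron of the striatum, were detected in every library. Levels below are CPM (counts scaled to library size with TMM factors), and n = 3 per group. Log2 fold changes carry a standard error (SE) and a p-value of edgeR's quasi-likelihood test, adjusted by Benjamini-Hochberg over all genes tested, and a gene is called at an adjusted p below 0.05. In these bulk samples, fewer cells of a type and less RNA per cell cannot be told apart.

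Dnmt3a, the targeted gene, was 182, 164 and 171 CPM in GFP males and 143, 137 and 138 CPM in Cre males. All Cre males lay below all GFP males, with a log2 fold change of -0.30 (SE 0.06, adjusted p = 0.0149). In females it was 162, 169 and 155 CPM with GFP and 155, 150 and 140 CPM with Cre, a log2 fold change of -0.12 (SE 0.06, adjusted p = 0.829), and the groups touched at 155 CPM. The difference between the sexes was 0.18 (SE 0.08, adjusted p = 0.269). The count covers the whole gene, so the share of cells that lost the flanked part cannot be read from it. The male call was lost without GFP male 1 (adjusted p = 0.0579) or GFP male 3 (adjusted p = 0.0583). With the sum of cortical neuron markers in the fit, an alternative chosen after seeing the data, the fold change was -0.27 (adjusted p = 0.999). That sum was higher in every Cre male than in every other floxed library, so this fit can hardly separate it from Cre in males. Averaged over the sexes, the fold change of Dnmt3a was -0.21 (SE 0.04, adjusted p = 0.0260). This call was kept without Cre female 1, Cre male 2, Cre male 3 or GFP female 3. It was lost in the other 8 of the 12 fits that left out 1 library.

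The 4 members Peg13, Snrpn, Mirg and Rian had no row matched by identifier, so their levels were not analysed here. The row that once stood for part of the Snrpn locus is named Gm38393 in the annotation used here, shares 27.3% of the exon length of Snrpn, and gave 597 to 819 CPM in wild-type and 472 to 591 CPM in floxed libraries. These values are not taken as those of Snrpn, an RNA-splicing protein of the Prader-Willi locus. H19, a noncoding RNA, and Phlda2, a gene with growth-limiting activity in placenta, did not pass the filter. H19 had 0 to 5 counts per wild-type and 0 to 20 per floxed library, and Phlda2 at most 1 and 2.

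Levels between genes were compared per kilobase of merged exons (RPKM), as the mean ± SD over the 12 libraries of an experiment. The noncoding RNA Meg3 stood highest in both, at 277 ± 57.1 RPKM in wild-type and 380 ± 44.3 RPKM in floxed libraries. The paternally expressed Nnat (neuronatin, a small membrane protein of the endoplasmic reticulum) followed at 187 ± 27.3 and 142 ± 10.8 RPKM, and Nap1l5, a relative of nucleosome assembly proteins, at 147 ± 28.0 and 166 ± 42.1 RPKM. In wild-type libraries the mean of Nnat lay above that of Nap1l5 by more than either SD, though stressed female 3 and stressed male 2 went the other way. In floxed libraries the means of Nnat and Nap1l5 stood in the opposite order and differed by less than the SD of Nap1l5.

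Among the paternally expressed members, Impact, a regulator of translation under amino acid shortage, was next in wild-type libraries (68.2 ± 9.35 RPKM), and Ndn, the MAGE-family protein necdin, was next in floxed libraries (74.2 ± 9.40 RPKM). Peg3, a zinc-finger protein, and Peg10, derived from a retrotransposon, lay at 53.3 ± 8.70 and 53.0 ± 6.51 RPKM in wild-type libraries and did not differ beyond their spread. Dlk1, a transmembrane relative of Notch ligands, was at 32.6 ± 5.66 RPKM there. Apart from Ndn at 28.1 ± 2.96 RPKM, the remaining paternally expressed members lay between 14.3 RPKM for Zrsr1, a splicing-factor retrogene, and 0.310 RPKM for Airn, the noncoding RNA that silences Igf2r in many tissues, which was the lowest of all tested members.

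The other maternally expressed members were far below Meg3. Copg2, a subunit of the COPI vesicle coat, was second in this class at 23.8 ± 1.88 and 20.9 ± 1.21 RPKM in the 2 experiments, and Trappc9, a part of the TRAPP vesicle-tethering complex, was the next at 11.4 ± 1.42 and 10.7 ± 0.380 RPKM. Zim1, a zinc-finger protein, and Asb4, a substrate adaptor of ubiquitin ligases, were the lowest of this class at 0.603 and 0.559 RPKM in wild-type libraries. Of the members with a variable allele, Blcap, a small conserved membrane protein, stood highest at 40.7 ± 2.66 and 42.1 ± 1.79 RPKM, followed by Begain, a postsynaptic density protein, at 31.8 ± 8.47 and 29.8 ± 2.78 RPKM, and Inpp5f, a phosphoinositide phosphatase, at 29.2 ± 3.00 and 32.1 ± 3.51 RPKM. Begain and Inpp5f did not differ beyond their spread in either experiment.

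**Figure D1:**
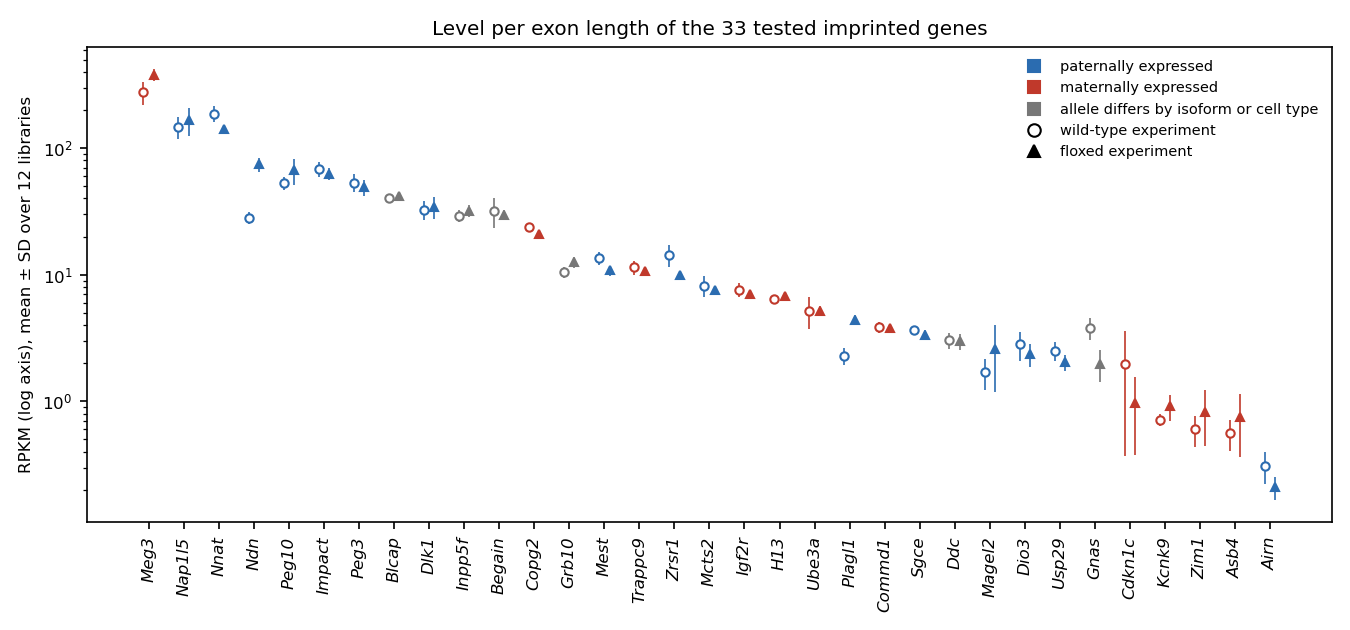
RPKM (log axis) of the 33 tested imprinted genes, as the mean over 12 libraries with bars of 1 SD, open circles for the wild-type and triangles for the floxed experiment, coloured by expressed allele. Meg3 stands highest at 277 and 380 RPKM, and Airn lowest at 0.310 and 0.210 RPKM.

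By library, Nap1l5 was 243, 212 and 273 CPM in control females, 223, 282 and 376 CPM in stressed females, 226, 216 and 279 CPM in control males and 288, 348 and 288 CPM in stressed males. Impact was 300, 315 and 374 CPM in control females, 354, 334 and 446 CPM in stressed females, 333, 315 and 291 CPM in control males and 373, 426 and 338 CPM in stressed males. In both genes the stressed males lay above all control males, and the female groups overlapped. Nnat in the same order was 425, 334 and 347 CPM, 365, 342 and 315 CPM, 371, 310 and 431 CPM, and 307, 258 and 308 CPM. Inpp5f was 202, 220 and 271 CPM in control females, 238, 242 and 271 CPM in stressed females, 238, 241 and 241 CPM in control males and 218, 292 and 246 CPM in stressed males. For Inpp5f the stressed and control groups overlapped in both sexes.

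Copg2 was 99.7, 127 and 134 CPM in control females, 122, 127 and 132 CPM in stressed females, 116, 128 and 117 CPM in control males and 116, 127 and 115 CPM in stressed males. In floxed libraries it was 114, 98.8 and 103 CPM in GFP females, 109, 114 and 99.2 CPM in Cre females, 110, 115 and 114 CPM in GFP males and 105, 104 and 100 CPM in Cre males. Among these 4 contrasts only Cre males and GFP males did not overlap. Trappc9 was 92.0, 95.3 and 69.5 CPM in control females, 109, 91.4 and 79.2 CPM in stressed females, 105, 92.4 and 90 CPM in control males and 91.8, 76.4 and 96.9 CPM in stressed males. In floxed libraries it was 83.2, 83.9 and 85.1 CPM in GFP females, 91.3, 83.8 and 82.9 CPM in Cre females, 88.1, 84.7 and 81.1 CPM in GFP males and 89.3, 82.6 and 83.8 CPM in Cre males. Trappc9 overlapped between treated and control libraries in each sex of both experiments.

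In floxed males, Nap1l5 was 279, 299 and 235 CPM with GFP and 263, 478 and 267 CPM with Cre, and Impact 327, 333 and 296 CPM with GFP and 300, 382 and 295 CPM with Cre. Nnat was 285, 250 and 272 CPM with GFP and 241, 238 and 281 CPM with Cre in males. The male groups overlapped for all 3, and Cre male 2 was the highest male library for Nap1l5 and Impact.

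These levels rest on the length used: with the median transcript length in place of merged exons, Meg3 came to 8620 RPKM and Nnat to 308 RPKM in floxed libraries. The order of members changed as well. Blcap came to 276 RPKM in wild-type and 286 RPKM in floxed libraries, above Nap1l5 at 219 and 248 RPKM. Inpp5f, at 93.3 and 102 RPKM, then stood above Begain, at 77.8 and 73 RPKM. Some rows hold exons that another gene covers on the opposite strand, and the sources used here do not state whether reads were counted by strand. This touched 30.7% of the exon length of Cdkn1c, 27.3% of Ube3a, 23.1% of Mest and 17.8% of Copg2, which overlap each other, and 14.8% of Usp29. For Gnas, which encodes the stimulatory G-protein subunit, 22.0% of the exon length is covered by Nespas and Gm20721, and its value of 3.80 RPKM in wild-type and 1.97 RPKM in floxed libraries is uncertain.

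Promoter windows from RefSeq (250 bases before to 50 after a start, build GRCm38.p6) were found for 31 members, as 48 windows of 300 bases, among them windows of Snrpn, Mirg and Rian. Their median number of CG dinucleotides, the target of DNA methylation, was 17, against 7 over all 32817 windows of the table. The letters TGCCGC, the core of the motif bound by the imprint-keeping protein ZFP57, were searched on both strands with overlaps allowed and were found in 12 of the 48 windows (25%) and in 3809 of all windows (11.6%). These are descriptions of letters, not of bound or methylated sites. Windows and not genes were counted, and windows of the same gene can overlap, as some of Begain do (34 to 46 CG each). The windows printed here belong to 5 members on chromosome 7 that form 3 pairs of neighbours, Ndn with Magel2 and Peg3 with Usp29 and with Zim1, whose levels moved together across floxed libraries, as described below, with CG dinucleotides in capitals.
Peg3: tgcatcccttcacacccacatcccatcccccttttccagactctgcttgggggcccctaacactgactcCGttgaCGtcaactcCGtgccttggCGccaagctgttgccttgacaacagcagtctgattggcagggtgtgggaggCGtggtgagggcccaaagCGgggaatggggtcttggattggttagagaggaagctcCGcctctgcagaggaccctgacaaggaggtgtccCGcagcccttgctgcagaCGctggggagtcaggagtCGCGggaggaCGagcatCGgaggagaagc
Usp29: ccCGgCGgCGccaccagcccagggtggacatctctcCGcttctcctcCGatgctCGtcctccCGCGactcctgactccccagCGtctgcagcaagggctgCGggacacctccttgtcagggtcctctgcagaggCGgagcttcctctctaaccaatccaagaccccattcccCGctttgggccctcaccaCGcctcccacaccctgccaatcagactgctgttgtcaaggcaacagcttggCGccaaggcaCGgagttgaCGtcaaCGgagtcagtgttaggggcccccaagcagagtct
Zim1: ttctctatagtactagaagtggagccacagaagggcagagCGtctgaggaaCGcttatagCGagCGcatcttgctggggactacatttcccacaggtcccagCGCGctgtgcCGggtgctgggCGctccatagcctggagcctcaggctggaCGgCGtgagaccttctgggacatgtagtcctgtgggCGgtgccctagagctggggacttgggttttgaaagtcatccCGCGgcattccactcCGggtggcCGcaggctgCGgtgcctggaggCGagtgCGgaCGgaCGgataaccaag
Ndn: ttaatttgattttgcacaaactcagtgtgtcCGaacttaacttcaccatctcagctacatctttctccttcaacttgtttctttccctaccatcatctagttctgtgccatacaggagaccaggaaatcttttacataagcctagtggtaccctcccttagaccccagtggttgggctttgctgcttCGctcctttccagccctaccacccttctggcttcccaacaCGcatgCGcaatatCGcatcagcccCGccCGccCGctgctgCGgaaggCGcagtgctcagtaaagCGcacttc
Magel2: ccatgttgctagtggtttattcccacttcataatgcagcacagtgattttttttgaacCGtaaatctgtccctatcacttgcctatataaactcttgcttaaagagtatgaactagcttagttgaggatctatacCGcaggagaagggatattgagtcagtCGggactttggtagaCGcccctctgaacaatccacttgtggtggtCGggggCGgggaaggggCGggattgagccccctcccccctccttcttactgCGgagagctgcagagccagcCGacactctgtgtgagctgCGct
Peg3 (chr7:6730370-6730669, minus strand, 13 CG) and Usp29 (chr7:6730333-6730632, plus strand, 17 CG) start from opposite strands of nearly the same stretch, and their windows share 263 bases. Zim1 (chr7:6696383-6696682, minus strand, 20 CG) belongs to the same cluster and is the one of the 5 with TGCCGC on either strand, at 1 place. Ndn (chr7:62348027-62348326, plus strand, 11 CG) and Magel2 (chr7:62376729-62377028, plus strand, 10 CG) are neighbours in the Prader-Willi cluster.

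In wild-type females, 0 of 33 members were called with stress, as were 0 of all genes (0% called) in edgeR. With 3 libraries per group this does not show equal levels. DESeq2 called 0 members and 2 of all genes, and limma-voom 0 of either. At an unadjusted p below 0.05 there were 2 members, Peg10 and Grb10, beside 256 of all genes (1.68%). The log2 fold change was above 0 for 26 of 33 members, against 48.7% of all genes, with a median of 0.12 against -0.01 over all genes. This held for 12 of 16 paternally expressed members (median 0.16), 9 of 11 maternally expressed (median 0.08) and 5 of 6 with a variable allele (median 0.19). In 5 members all stressed females lay above all control females and in 0 below, against 2.72% of all genes above and 2.58% below.

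Peg10 was 367, 303 and 292 CPM in control females and 451, 373 and 385 CPM in stressed females (log2 fold change 0.33, SE 0.13, adjusted p = 1). Each stressed female library lay above each control female library, though the closest were 367 and 373 CPM. Grb10, an adaptor that restrains insulin and IGF receptor signalling, was 89.7, 91.6 and 89.4 CPM in control and 104, 109 and 116 CPM in stressed females (0.28, SE 0.11, adjusted p = 1), without overlap. In males Grb10 was 89.7, 93.9 and 88.5 CPM in controls and 87.6, 102 and 85.6 CPM after stress, and these overlapped.

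Zim1 was 4.56, 4.63 and 3.75 CPM in control and 4.74, 5.42 and 8.21 CPM in stressed females (0.50, SE 0.25, adjusted p = 1). Ndn was 90.7, 108 and 88.7 CPM in control and 110, 114 and 108 CPM in stressed females (0.21, SE 0.13, adjusted p = 1). The groups did not overlap in Zim1, and in Ndn they met at 108 CPM without crossing. The uncertain Gnas row was 51.0, 39.2 and 31.0 CPM in control and 46.2, 51.8 and 52.7 CPM in stressed females (0.31, SE 0.18, adjusted p = 1), with overlap. With the library number as a block, the adjusted p came to 0.665 for Peg10 and 0.821 for Grb10. Cortical neuron markers summed to 160 to 275 CPM in control and 160 to 174 CPM in stressed females, with 7 of 9 tested markers below 0 and a median log2 fold change of -1.17. Their part in these values was not tested.

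In wild-type males, 0 of 33 members were called with stress, beside 1 of all genes (0.00656% called) in edgeR. DESeq2 and limma-voom called 0 members, beside 4 and 0 of all genes. At an unadjusted p below 0.05 there were 5 members beside 429 of all genes (2.81%). The direction was mixed, with 19 members above 0 and 14 below, against 49.7% of all genes above 0, and a median of 0.03 against 0.00 over all genes. Of the paternally expressed members 11 of 16 were above 0 (median 0.08), of the maternally expressed 4 of 11 (median -0.11) and of those with a variable allele 4 of 6 (median 0.04). In 4 members the stressed males lay wholly above and in 5 wholly below the controls, against 3.67% and 4.24% of all genes.

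Igf2r, the receptor that clears the growth factor IGF2, was 72.4, 79.9 and 84.1 CPM in control males and 63.2, 51.9 and 63.1 CPM in stressed males. All stressed males lay below all control males, with a log2 fold change of -0.41 (SE 0.13, adjusted p = 1 in edgeR). Under all alternatives, fits with a block by library number among them, the adjusted p of Igf2r was at least 0.278 (edgeR, DESeq2 or limma-voom). In females it was 72.8, 77.6 and 66.8 CPM in controls and 79.9, 69.7 and 69.8 CPM after stress, so these groups overlapped. The difference of the effect between the sexes was 0.42 (SE 0.18, adjusted p = 1), the smallest p among the members for that comparison.

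Mcts2, a retrogene copy of a translation re-initiation factor, was 6.89, 5.97 and 6.13 CPM in control males and 10.4, 9.77 and 7.56 CPM in stressed males (0.55, SE 0.18, adjusted p = 1). In females its values were 6.89, 6.38 and 7.20 CPM in controls and 8.67, 6.87 and 6.96 CPM after stress. Nnat was 371, 310 and 431 CPM in control males and 307, 258 and 308 CPM in stressed males (-0.35, SE 0.15, adjusted p = 1). The male groups did not overlap in either gene, while for Mcts2 the female groups did. Gnas was 34.4, 33.2 and 34.6 CPM in control and 54.9, 37.3 and 44.4 CPM in stressed males (0.42, SE 0.18, adjusted p = 1), without overlap. The mean effect over the sexes was 0.37 (SE 0.13) for Gnas, 0.34 (SE 0.13) for Mcts2 and 0.47 (SE 0.17) for Zim1, each with an adjusted p of 1.

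Cdkn1c, which encodes the cell-cycle inhibitor p57, was 1.77, 6.08 and 13.5 CPM in control males and 3.63, 2.28 and 3.35 CPM in stressed males. The control males spread over both sides of the stressed males, and the log2 fold change of -1.21 (SE 0.55, adjusted p = 1) was -0.33 without control male 3. Markers of choroid plexus and ependyma (12 of 12 in the table) summed to 187, 1850 and 4710 CPM in the same control males and to 264 to 400 CPM in stressed males. Igf2, a growth factor made by choroid plexus and meninges, was 38.6, 76.2 and 206 CPM in these control males. Cdkn1c, Igf2 and the marker sum were lowest in control male 1 and highest in control male 3, and the part of the markers in the fold change was not tested. The difference between the sexes for Cdkn1c was 1.69 (SE 0.82, adjusted p = 1).

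Averaged over the sexes, 0 of 33 members were called with stress, beside 0.0131% of all genes, with 9 members at an unadjusted p below 0.05 beside 3.21% of all genes in edgeR. DESeq2 and limma-voom also called 0 members for the average and for the difference between the sexes. For the difference of the stress effect between females and males, 0 members and 0% of all genes were called, with 1 member (Igf2r) and 1.19% of all genes at an unadjusted p below 0.05. The third smallest p there belonged to Blcap, at 119, 112 and 118 CPM in control females, 134, 118 and 132 CPM in stressed females, 129, 127 and 138 CPM in control males and 123, 117 and 117 CPM in stressed males (0.28, SE 0.15, adjusted p = 1). Of 21 other imprinted genes tested, 0 were called with stress in either sex in edgeR, with 2 in females and 1 in males at an unadjusted p below 0.05, against 1.68% and 2.81% of all genes.

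**Figure D2:**
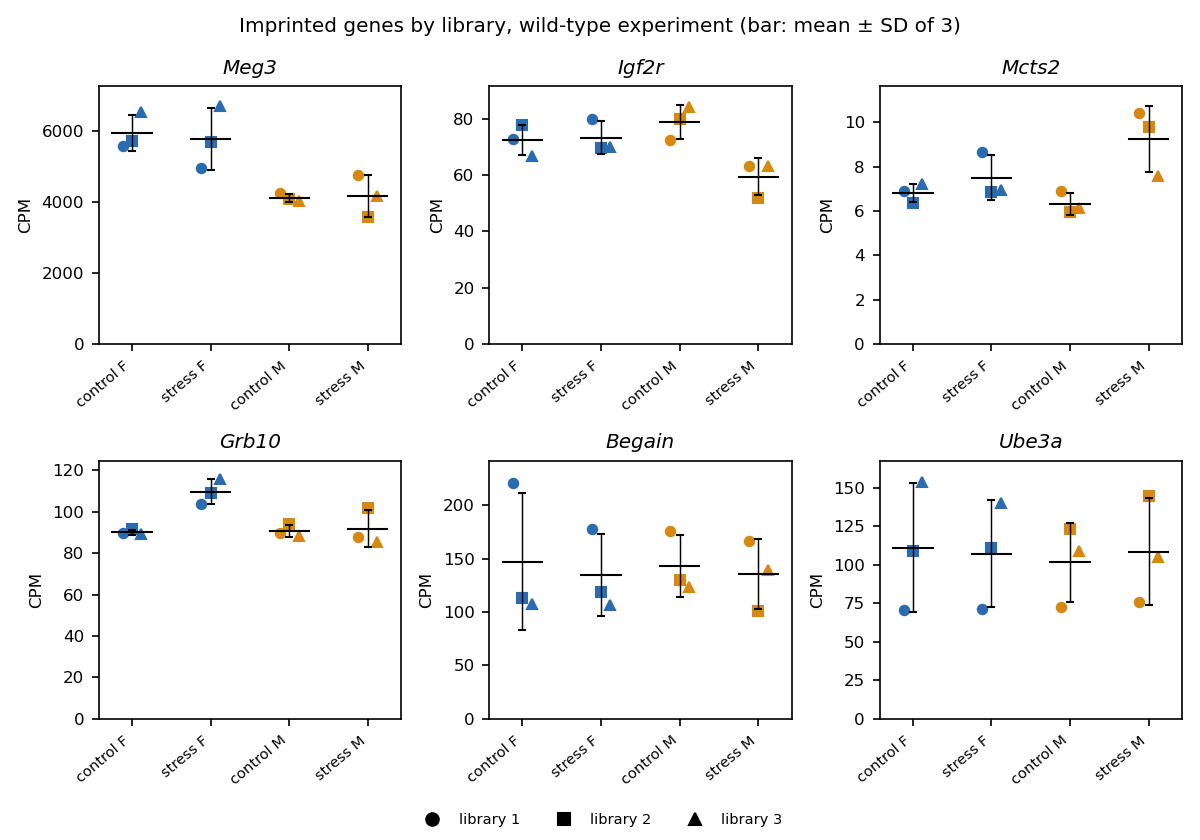
CPM of 6 imprinted genes in the 12 wild-type libraries by group (F female, M male), with marker shapes for the library number and bars for the mean ± SD of 3. Meg3 separates the sexes (4950 to 6700 against 3570 to 4770 CPM), and Begain and Ube3a follow the library number.

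For sex in the wild-type experiment, Meg3 had the smallest p of the members, without passing the test. It was 5570, 5730 and 6530 CPM in control females, 4950, 5700 and 6700 CPM in stressed females, 4250, 4080 and 4030 CPM in control males and 4770, 3570 and 4170 CPM in stressed males. All 6 female libraries (4950 to 6700 CPM) lay above all 6 male libraries (3570 to 4770 CPM). The log2 difference, female minus male, was 0.50 (SE 0.10, adjusted p = 0.353). In that comparison 0 of 33 members and 0.0393% of all genes were called, with 2 members and 5.03% of all genes at an unadjusted p below 0.05. With DESeq2 its adjusted p was 0.00235, with limma-voom 0.250, and without the filter on low counts it was 0.0399 in edgeR. Leaving out any 1 library gave 0.175 to 1 in edgeR.

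Rtl1, a retrotransposon-derived gene of the same chromosome 12 cluster that is not among the 39, showed the same size of difference (0.51, SE 0.10, adjusted p = 0.353), with 37.6 to 46.1 CPM in females and 24.9 to 32.7 CPM in males. Dlk1, also of that cluster, overlapped between the sexes, at 141 to 255 and 158 to 199 CPM. In the floxed experiment the Meg3 ranges overlapped, at 5610 to 7430 CPM in females and 5900 to 8180 CPM in males, with a difference of -0.05 (SE 0.07, adjusted p = 0.963). Whether the sex difference of Meg3 itself differs between the experiments was not tested.

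The next members by p were Peg3 and Commd1, a regulator of NF-kappa-B and of copper handling, at 0.26 (SE 0.12) and -0.17 (SE 0.10), each with an adjusted p of 0.971. Peg3 was 645, 784 and 817 CPM in control females, 607, 824 and 964 CPM in stressed females, 587, 672 and 730 CPM in control males and 597, 684 and 618 CPM in stressed males. Commd1 was 20.5, 22.5 and 19.5 CPM in control females, 25.6, 20.8 and 19.8 CPM in stressed females, 25.2, 24.1 and 21.1 CPM in control males and 25.4, 24.7 and 24.6 CPM in stressed males. Female and male libraries overlapped in both genes. In the floxed experiment 0 members and 0.0682% of all genes were called between the sexes, with 2 members and 6.68% of all genes at an unadjusted p below 0.05 in edgeR and 0 called by DESeq2 or limma-voom. The smallest p belonged to Kcnk9, a background potassium channel, at 8.49, 11.7 and 6.35 CPM in Cre females, 10.4, 9.36 and 11.3 CPM in GFP females, 12.9, 15.3 and 9.93 CPM in Cre males and 15.5, 12.7 and 10.9 CPM in GFP males (-0.43, SE 0.15, adjusted p = 0.628).

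Dlk1 followed for sex in the floxed experiment (0.24, SE 0.10, adjusted p = 0.713), and then H13, a signal peptide peptidase (0.07, SE 0.04, adjusted p = 0.847). H13 was 59.8, 59.0 and 63.1 CPM in GFP females, 61.5, 62.0 and 62.0 CPM in Cre females, 58.8, 52.7 and 58.5 CPM in GFP males and 56.2, 62.9 and 61.0 CPM in Cre males. The sexes overlapped for Kcnk9, Dlk1 and H13 alike.

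Some members followed the library number rather than the group in the wild-type experiment. Begain was 221, 178, 176 and 166 CPM in libraries numbered 1 of control females, stressed females, control males and stressed males, and 101 to 139 CPM in the other 8 libraries. Ube3a, the ubiquitin ligase silenced on the paternal allele in neurons, was 70.7, 71.1, 72.8 and 76.0 CPM in the libraries numbered 1 and 105 to 154 CPM in the others. Peg3 and Inpp5f were also lowest in number 1 of all 4 groups. Over all genes, 14.1% were highest and 14.2% lowest in number 1 of all 4 groups, against 0.997% to 1.69% for the other numbers. The labels do not say what the number stands for.

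In floxed females, 0 of 33 members were called with Cre, as were 0 of all genes (0% called) in edgeR. DESeq2 and limma-voom called 0 members, beside 34 and 0 of all genes. At an unadjusted p below 0.05 there were 2 members beside 1049 of all genes (5.96%). The members split into 14 above and 19 below 0, against 50.1% of all genes above 0, with a median of -0.06 against 0.00 over all genes. It was -0.09 for the paternally, -0.06 for the maternally expressed members and -0.03 for those with a variable allele. Cre females lay wholly above GFP females in 3 members and wholly below in 1, against 6.5% and 5.04% of all genes.

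Begain was 117, 123 and 129 CPM in GFP females and 146, 145 and 147 CPM in Cre females. The groups did not overlap, with a log2 fold change of 0.25 (SE 0.08, adjusted p = 0.664), while in males it was 145, 126 and 121 CPM with GFP and 128, 112 and 137 CPM with Cre. Zrsr1 was 51.3, 45.3 and 46.5 CPM in GFP and 43.3, 44.4 and 41.3 CPM in Cre females (-0.15, SE 0.06, adjusted p = 0.787), also without overlap. Nnat was 248, 238 and 252 CPM in GFP and 264, 297 and 254 CPM in Cre females (0.14, SE 0.08, adjusted p = 0.859), again without overlap. Impact was 373, 308 and 345 CPM against 301, 320 and 277 CPM (-0.19, SE 0.11, adjusted p = 0.859), and Nap1l5 401, 274 and 398 CPM against 252, 306 and 229 CPM (-0.45, SE 0.24, adjusted p = 0.859). The groups overlapped for Impact and Nap1l5.

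**Figure D3:**
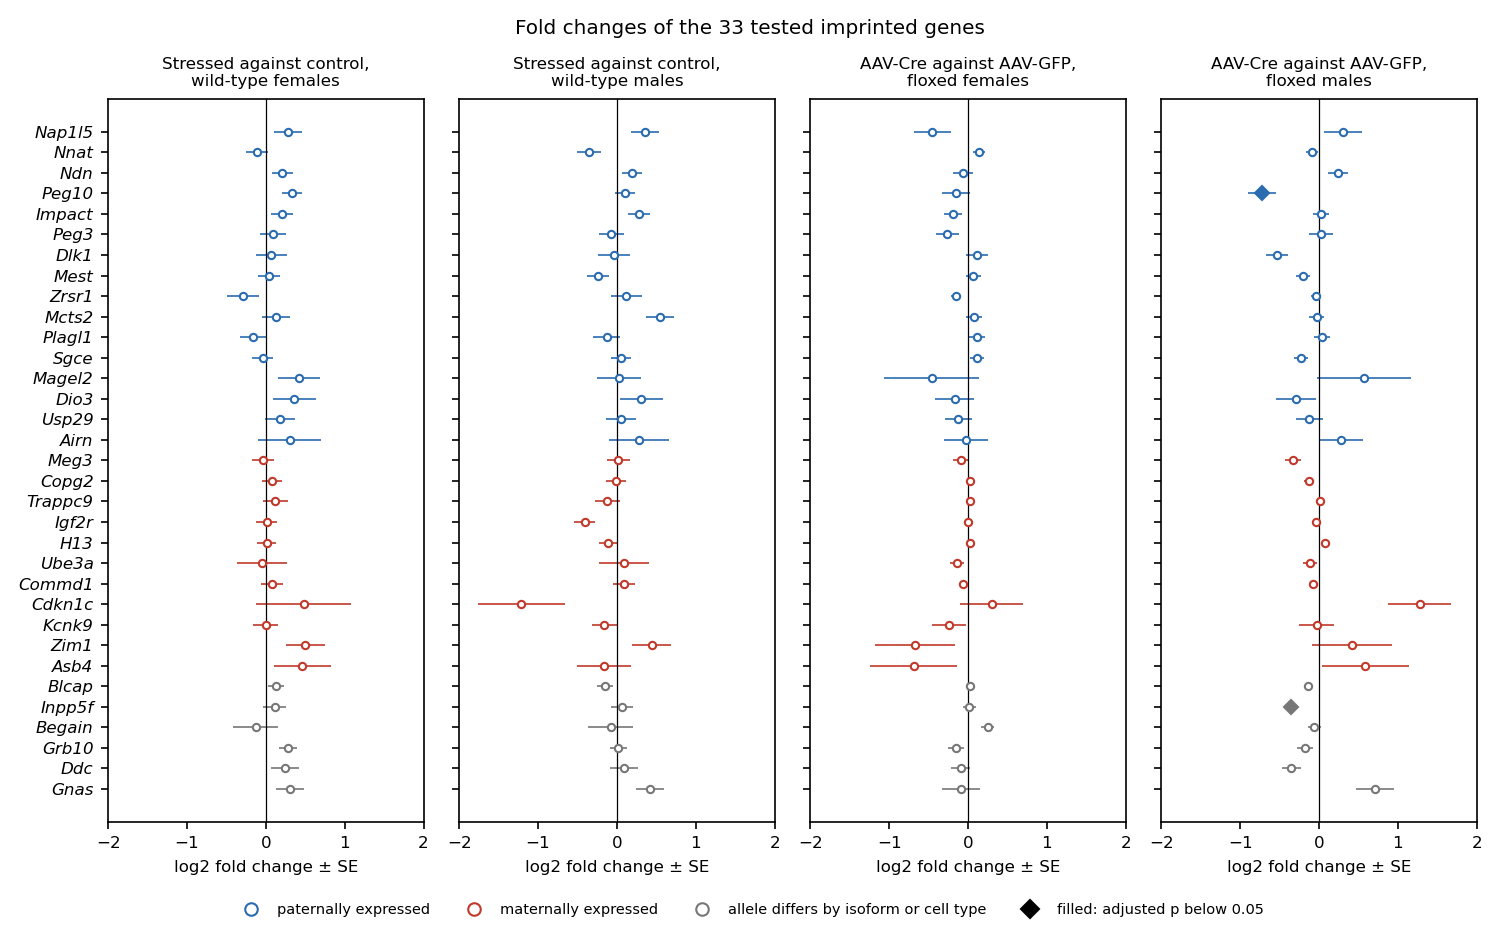
Log2 fold change with bars of 1 SE for the 33 tested imprinted genes in 4 comparisons, coloured by expressed allele; filled diamonds are the genes with an adjusted p below 0.05. Only Peg10 (-0.72) and Inpp5f (-0.36), both with Cre in males, are filled.

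In floxed males, 2 of 33 members fell with Cre, Inpp5f and Peg10, and 0 rose. The background was 872 of 17597 genes (4.96% called), with 3.68% called higher and 1.28% lower. The 2 of 33 members called are close to the 4.96% of all genes called in either direction. The 1.28% called lower is the share for the direction that was seen. At an unadjusted p below 0.05 there were 10 members (30.3%) beside 24.8% of all genes. The median was -0.04 against 0.00 over all genes, with 13 members above 0 and 20 below, against 50.9% of all genes above 0. By class, 1 of 16 paternally expressed members was called (median -0.04), 0 of 11 maternally expressed (median -0.03) and 1 of 6 with a variable allele (median -0.16). Cre males lay wholly below GFP males in 8 members and wholly above in 2, against 14.7% of all genes in each direction.

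Inpp5f was 282, 309 and 287 CPM in GFP males and 221, 209 and 255 CPM in Cre males. All Cre males lay below all GFP males, a log2 fold change of -0.36 (SE 0.08, adjusted p = 0.0277). In females it was 283, 286 and 245 CPM with GFP and 274, 276 and 278 CPM with Cre, and these overlapped. The difference between the sexes was 0.38 (SE 0.11, adjusted p = 0.148), which did not pass. An isoform of Inpp5f that starts within the gene is expressed from the paternal allele in brain, and the row does not separate it from the longer isoform.

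Peg10 was 539, 585 and 471 CPM in GFP males and 282, 362 and 325 CPM in Cre males. All Cre males lay below all GFP males, a log2 fold change of -0.72 (SE 0.18, adjusted p = 0.0471). In females it was 517, 569 and 367 CPM with GFP and 485, 486 and 342 CPM with Cre, with overlap. Averaged over the sexes the fold change was -0.43 (SE 0.13, adjusted p = 0.141), the smallest p of the members in that comparison, where 0 of 33 members and 1.42% of all genes were called. In that comparison 7 members and 14.2% of all genes had an unadjusted p below 0.05 in edgeR, DESeq2 called 1 and limma-voom 0. Sgce, the neighbour of Peg10 that encodes epsilon-sarcoglycan, was 35.0, 39.9 and 39 CPM in GFP and 30.5, 30.6 and 35.9 CPM in Cre males (-0.23, SE 0.09, adjusted p = 0.123), and these overlapped.

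Both calls rest on few libraries. The call of Inpp5f was lost in 5 of the 12 fits that left out 1 library, those without Cre male 1 or 2 (adjusted p = 0.0834 and 0.0790) or without GFP male 1, 2 or 3 (adjusted p = 0.0635, 0.117 and 0.0828). That of Peg10 was lost in 9 of the 12, up to an adjusted p of 0.152 without GFP male 2, and kept without Cre female 3, GFP female 2 or GFP female 3.

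Cre males also stood apart in markers of neighbouring tissue. Markers of cortical excitatory neurons (10 of 10 in the table) summed to 313 to 637 CPM in Cre males, 99.1 to 129 CPM in GFP males, 94.5 to 158 CPM in Cre females and 90.2 to 127 CPM in GFP females, and 9 of the 10 rose with Cre in males. None of them was at 0 in all libraries, and Neurod1 was at 0 in 1 floxed library. Cre male 2 held 3300 CPM of choroid plexus and ependyma markers, against 169 to 372 CPM in the other floxed libraries, and 2750 CPM of medium spiny neuron markers, against 4870 to 6430 CPM. With the cortical marker sum added to the fit, which was chosen after seeing the data, Inpp5f was at -0.17 and Peg10 at -0.57, both with an adjusted p of 0.999, and 0 of all genes were called. Every Cre male lay above every other floxed library in this sum, so the fit can hardly separate it from Cre in males. No conclusion is drawn from the lost calls. Without Cre male 2 the values of Inpp5f and Peg10 were -0.30 and -0.81, with adjusted p of 0.0790 and 0.0953.

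The other members of smallest p in Cre males did not pass. Dlk1 was 212, 216 and 207 CPM in GFP males and 124, 153 and 162 CPM in Cre males (-0.53, SE 0.14, adjusted p = 0.0578). Meg3, of the same cluster, was 8180, 7310 and 7890 CPM in GFP and 6000, 6740 and 5900 CPM in Cre males (-0.33, SE 0.10, adjusted p = 0.0819). Neither gene overlapped between the male groups. In females Dlk1 was 208, 228 and 166 CPM with GFP and 261, 198 and 191 CPM with Cre, and the difference between the sexes was 0.64 (SE 0.20, adjusted p = 0.173). Meg3 in females was 6980, 6490 and 7330 CPM with GFP and 7430, 6530 and 5610 CPM with Cre, and the averaged effect was -0.21 (SE 0.07, adjusted p = 0.206).

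Cdkn1c was 1.39, 1.04 and 1.48 CPM in GFP males and 1.92, 5.69 and 1.82 CPM in Cre males (1.28, SE 0.40, adjusted p = 0.0828). The high library was Cre male 2, which also had the high choroid plexus sum and 127 CPM of Igf2 against 22.1 to 29.2 CPM in the other floxed libraries. Without it the fold change was 0.51, and without Cre male 3 it was 1.55 (adjusted p = 0.0320). Blcap was 140, 131 and 134 CPM in GFP and 121, 125 and 123 CPM in Cre males (-0.14, SE 0.04, adjusted p = 0.0923), without overlap. Gnas was 17.3, 17.2 and 17.4 CPM in GFP and 21, 37.3 and 26.1 CPM in Cre males (0.71, SE 0.24, adjusted p = 0.111), on an uncertain row. Sgce and Dlk1 were, after Inpp5f, the members of smallest p for the difference between the sexes, at 0.35 (SE 0.12, adjusted p = 0.194) for Sgce, where 0 members and 0.0114% of all genes were called. There 9 members and 17.5% of all genes had an unadjusted p below 0.05 in edgeR, DESeq2 called 2 (Dlk1 and Inpp5f) and limma-voom 0.

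**Figure D4:**
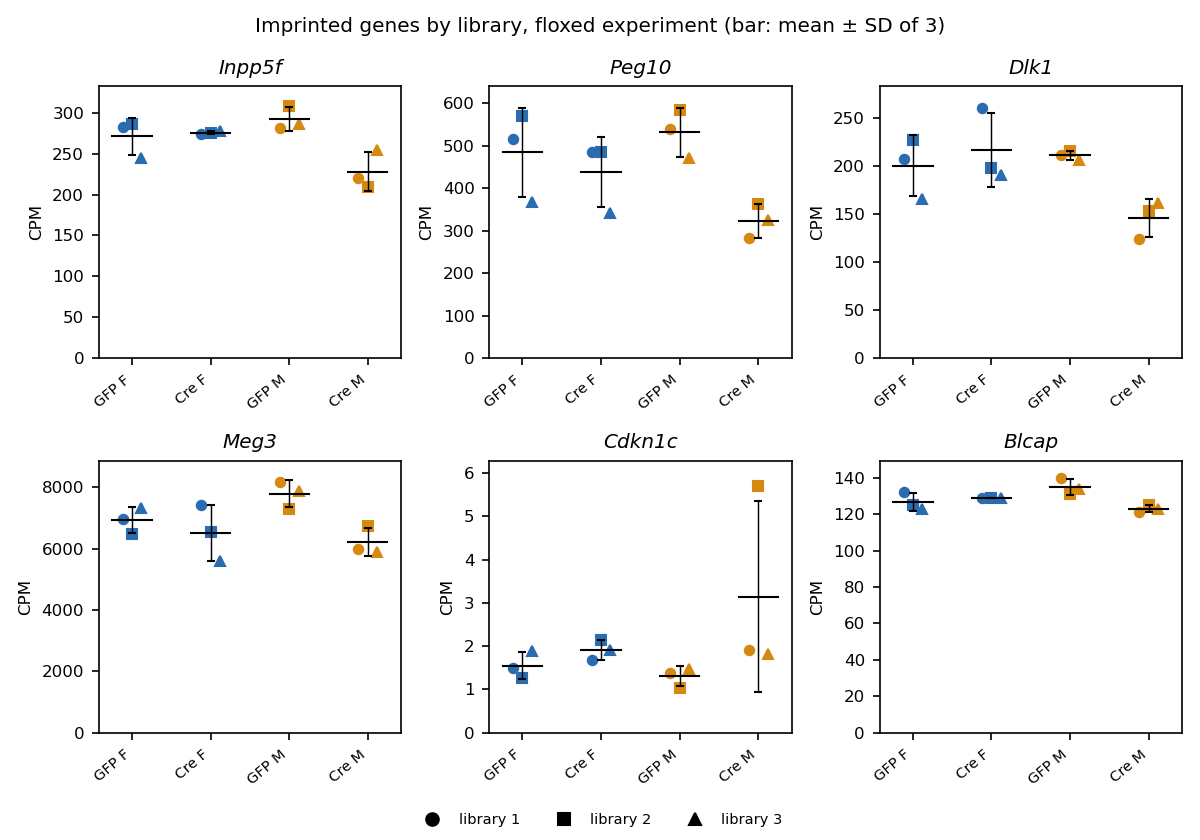
CPM of 6 imprinted genes in the 12 floxed libraries by group (F female, M male), with marker shapes for the library number and bars for the mean ± SD of 3. Inpp5f, Peg10, Dlk1, Meg3 and Blcap are lower in every Cre male than in every GFP male, and the Cdkn1c mean of Cre males is set by 1 library at 5.69 CPM.

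Of 27 further imprinted genes, 25 had a row and 21 were tested, and 3 fell with Cre in males while 0 rose, against 4.96% of all genes called and 1.28% called lower. At an unadjusted p below 0.05 there were 11 of the 21, against 24.8% of all genes. Zdbf2, a paternally expressed zinc-finger gene, was 152, 161 and 133 CPM in GFP and 101, 106 and 101 CPM in Cre males (-0.53, SE 0.10, adjusted p = 0.0157). Rtl1 was 29.1, 23.0 and 27.0 CPM in GFP and 16.4, 20 and 18.0 CPM in Cre males (-0.54, SE 0.12, adjusted p = 0.0310). Calcr, the calcitonin receptor gene near Peg10, was 28.9, 27.3 and 23.2 CPM in GFP and 11.6, 11.3 and 16.6 CPM in Cre males (-1.01, SE 0.23, adjusted p = 0.0368). The male groups did not overlap in any of the 3. In Cre against GFP averaged over the sexes, Zdbf2 fell as well (-0.34, SE 0.07, adjusted p = 0.0417). In females 0 of the 21 and 0% of all genes were called in edgeR, with 0 of the 21 and 5.96% of all genes at an unadjusted p below 0.05. With the cortical marker sum in the fit, Zdbf2, Rtl1 and Calcr in males were at -0.34, -0.59 and -0.19, each with an adjusted p of 0.999. As said above, that fit can hardly separate the sum from Cre in males. Each of the 3 male calls was lost without Cre male 1, GFP male 1 or GFP male 2 (adjusted p = 0.0556 to 0.117). Those of Rtl1 and Calcr were also lost without GFP male 3 (adjusted p = 0.102 and 0.0828), and that of Calcr without Cre male 2, Cre female 1 or GFP female 1 (adjusted p = 0.135, 0.0516 and 0.0541). The averaged call of Zdbf2 was kept only without Cre female 2 or GFP female 3, and lost in the other 10 of the 12 fits that left out 1 library.

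Of 18 genes that set, keep or erase methylation marks, 16 were tested in the floxed experiment. Tet2, an enzyme that oxidises methylated cytosine, fell with Cre in males along with Dnmt3a, and 0 rose, against 4.96% of all genes called and 1.28% called lower. Tet2 was 83.6, 84.9 and 81.9 CPM in GFP males and 69.5, 68.6 and 69.1 CPM in Cre males, without overlap (-0.27, SE 0.05, adjusted p = 0.0185). In females it was 74.8, 81.2 and 71.8 CPM with GFP and 75.2, 79.4 and 71.3 CPM with Cre, with overlap. The male call was lost without Cre male 1 or 2 or any GFP male (adjusted p = 0.0538 to 0.0775). It was also lost with the cortical marker sum in the fit (-0.20, adjusted p = 0.999), which can hardly separate that sum from Cre in males.

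Within some clusters, members rose and fell together from library to library in the floxed experiment, after group means were removed. Pairs of genes from different clusters were not computed, so this is not shown to be particular to neighbours. Genes of different clusters also peaked in the same libraries, as given below. In all, 26 relations were computed, 13 pairs in each experiment, each over 12 libraries, with exact two-sided permutation of libraries within groups (1296 permutations). Ndn and Magel2, both MAGE-family genes, had a Pearson r of 0.97 and a Spearman rho of 0.97 (permutation p = 0.000772 and adjusted p = 0.0201 for both), and r stayed at 0.97 without the 2 libraries farthest from the median. Peg3 and Usp29, a ubiquitin peptidase read from the opposite strand, had an r of 0.94 and a rho of 0.92 (permutation p = 0.0054, adjusted p = 0.0458), and r was 0.92 without 2 libraries. Peg3 and Zim1 had an r of 0.95 and a rho of 0.95 (permutation p = 0.0054, adjusted p = 0.0458), and r was 0.93 without 2 libraries.

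Mest, a paternally expressed gene of the hydrolase fold, and Copg2, which overlaps it on the opposite strand, had an r of 0.87 (permutation p = 0.00926, adjusted p = 0.0602) and a rho of 0.90 (permutation p = 0.00617, adjusted p = 0.0458) in floxed libraries. Without 2 libraries r was 0.76, and shared reads could enter both rows. Peg10 and Sgce, which share a promoter region, showed no such relation (r -0.06, rho -0.11, adjusted p = 0.901 and 0.830 by exact permutation). In wild-type libraries no pair passed: Ndn and Magel2 had an r of 0.19 (adjusted p = 0.793), Peg3 and Usp29 of 0.71 (adjusted p = 0.232) and Peg3 and Zim1 of 0.55 (adjusted p = 0.525), each by exact permutation. Whether a relation differs between the experiments was not tested.

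Magel2, Ndn, Peg3 and Zim1 were each highest in the same 4 floxed libraries, from 3 groups. Magel2 was 25.8 and 14.5 CPM in GFP females 3 and 1, 20.1 CPM in Cre female 2 and 20.2 CPM in Cre male 2, and 4.68 to 9.76 CPM in the other 8. Ndn was 315, 289, 307 and 347 CPM in those 4 libraries and 236 to 278 CPM elsewhere. Nap1l5 (398, 401, 306 and 478 CPM) and Asb4 (5.07, 4.15, 3.78 and 6.12 CPM) were also highest in those 4. Elsewhere they reached at most 299 and 2.51 CPM. The share of all genes that set these 4 libraries apart in the same way was not computed. The pattern is therefore not shown to be particular to imprinted genes. Markers of septal, pallidal and hypothalamic neurons (14 of 15 in the table) summed to 179, 110, 184 and 161 CPM in the same 4 and to 60.2 to 89.6 CPM in the other 8.

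Of these markers, Zic1, a septal and thalamic transcription factor, ranged from 21.2 to 128 CPM over floxed libraries, Zic4 from 3.1 to 23.1 CPM and Lhx6 from 19.3 to 47.0 CPM. Zic1 had by far the widest range, so differences in the sum rest largely on this gene. Nkx2-1 ranged from 2.98 to 7.42 CPM in floxed and from 3.58 to 7.66 CPM in wild-type libraries. Of the peptide genes in the list, Avp, Oxt, Hcrt and Pmch were at or near 0, with highest values of 0.0884, 0.0477, 0.143 and 0.234 CPM. The others were detected in every floxed library: Trh at 3.03 to 4.31 CPM, Crh at 1.14 to 4.89, Vip at 0.578 to 7.96, Pomc at 0.74 to 1.49, Agrp at 0.286 to 0.875 and Gal at 0.0673 to 1.07 CPM. Peg3 was 792, 768, 682 and 819 CPM and Zim1 12.6, 9.38, 7.45 and 12.2 CPM in the 4 libraries, against 512 to 667 and 2.70 to 6.22 CPM elsewhere. Usp29 was not set apart in this way, at 39.3, 40.8, 40.4 and 44.8 CPM in the 4 libraries and 27.3 to 42 CPM elsewhere. The relation to the marker sum, computed for all 33 members in both experiments (66 relations, chosen after seeing the data), had an r of 0.98 for Magel2, 0.93 for Ndn, 0.90 for Peg3 and 0.89 for Zim1 in floxed libraries, with a rho of 0.97, 0.94, 0.92 and 0.89. Each of these had an adjusted p of 0.0510 by exact permutation, so 0 of 33 passed, and r without the 2 libraries farthest from the median was 0.96, 0.92, 0.93 and 0.90. In all, 9 of the 33 members had an r above 0.8 in floxed libraries. The others were Nap1l5 (0.84), Kcnk9 (0.83), and Asb4, Gnas and Usp29 (0.82 each). The row Gm38393, not taken as a member, had an r of 0.8 there. The relation was not computed over all genes, so it is not shown to be particular to imprinted genes. In wild-type libraries the marker sum ran from 72.2 to 104 CPM and the median r over the members was 0.09, against 0.53 in floxed libraries. The part of tissue from outside the accumbens in these relations was not tested.

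**Figure D5:**
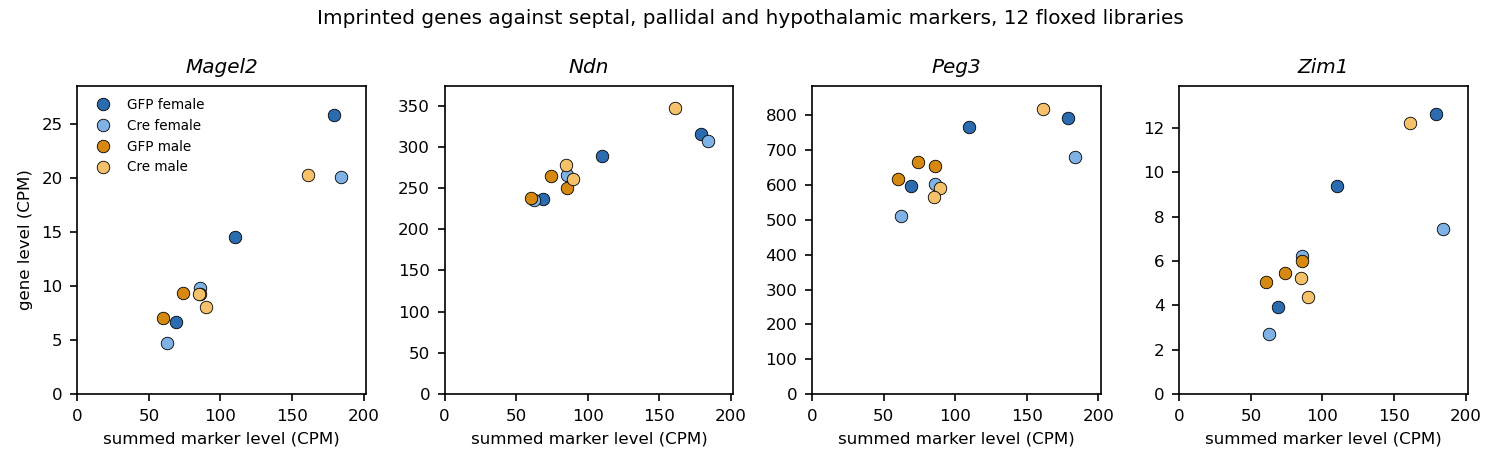
CPM of 4 imprinted genes against the summed CPM of septal, pallidal and hypothalamic neuron markers in 12 floxed libraries, coloured by group. The 4 libraries with sums of 110 to 184 CPM are also the 4 highest for each gene, and the other 8 have sums of 60.2 to 89.6 CPM.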

How the data were processed

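RNA was sequenced from nucleus accumbens of wild-type and Dnmt3a2lox/2lox mice in 24 libraries, 8 groups of 3, each of pooled RNA from 4 mice. The deposited values are raw read counts per Ensembl gene. Per the submitters' processing notes, the tools were HTSeq 0.6.0, TopHat2 2.0.9 and Bowtie2 2.1.0, and the builds were mm9 and NCBIM37. Tool settings and the strand used in counting: not given in the sources used here. Groups were taken from the sample titles, and symbols and exon lengths from GENCODE M21. The 39 members and the gene and marker lists were chosen with earlier results of these data known.

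Each experiment was fitted on its own in edgeR 4.0.16 (R 4.3.3) with 4 group means, TMM scaling, the quasi-likelihood test, and a filter on low counts (minimum count 10, minimum total 15). Benjamini-Hochberg adjustment ran over all genes tested. p-values measure the spread between pooled libraries. Members called in any comparison were named, as were the 5 of smallest p in each of the 4 comparisons within a sex, the 3 of smallest p in the others, the 3 of highest level per class, and Dnmt3a. Of the other lists, called members and at most 3 of smallest p were named.

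Same-numbered libraries deviated together in wild-type females (correlations 0.59, 0.33 and 0.52), so the fit with a block by number is the paired fit there. The main fits, of stress in females as well, have no such block, and their SE and p are unpaired. The rule used, a correlation above 0.1 in every pair, was not met in wild-type males (0.34, 0.25 and 0.09). Nor was it met in floxed females (0.09, -0.14 and -0.45) or floxed males (-0.11, 0.05 and 0.11). In wild-type males the same-numbered values still lay above those of differently numbered libraries (-0.28 to 0.07). Over all genes, 14.1% were highest and 14.2% lowest in number 1 of all 4 wild-type groups, males included. A shared part by number is thus seen in males as well, and the main fit of stress in males leaves it out. With the block within sex, 0 members were called for stress in males. Alternatives were DESeq2 1.42.0, limma-voom (limma 3.58.1), RLE factors, no filter, a replicate block within each sex, the groups of 1 sex only, leaving out each library, and another prior count (2 in place of 0.5) for the relations. After seeing the data, a block shared by all 4 groups and 2 marker sums as covariates were added.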

Additional observations from a re-analysis of the deposited data

How the results depend on the processing

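In Cre against GFP males, 2 members were called (872 of all genes). DESeq2 called 7 (1811 of all genes), limma-voom 2 (874), RLE factors 2 (886), the male groups alone 2 (Dlk1 and Peg10, 551 of all genes) and the fit with no filter on low counts 1 (784). The replicate block within sex gave 1 (Peg10, 191 of all genes) and the replicate block shared by all 4 groups 1 (Peg10, 515). The cortical marker sum as a covariate gave 0 (0 of all genes), and the septal, pallidal and hypothalamic marker sum gave 1 (Inpp5f, 588). The cortical sum was higher in every Cre male than in every other floxed library, so that fit can hardly separate it from Cre in males. Leaving out 1 library gave 0 to 3 members and 93 to 1303 of all genes. For Cre averaged over the sexes (0 members, 249 of all genes), DESeq2 called 1 (652), the replicate block within sex 1 (Peg10, 34 of all genes), and the fits without 1 library 0 to 1. For the difference of the Cre effect between the sexes (0 members, 2 of all genes), DESeq2 called 2 (606), and the fits without 1 library gave 0 to 1. For sex in the wild-type experiment (0 members, 6 of all genes), Meg3 was the 1 member called by DESeq2 (13 of all genes) and with no filter (14). The cause of these differences was not tested.

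The other comparisons had 0 members called under every alternative run, the paired fit of stress in females included, where the block gave 0 members and 5 of all genes. The pairs of neighbouring genes that passed by Pearson's r were 3 with either prior count, and Mest and Copg2 passed by rho alone with either. The named genes gave 919 alternative values over 45 combinations of gene and comparison: 827 kept their direction and side of the threshold, 76 lost the call, 16 gained one and 0 changed direction. Sex comparisons could not be fitted with the block within sex. With 3 libraries per group, a difference that misses the threshold does not show equal levels, and pooling of 4 mice hides the spread between animals.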
